A study of Mus musculus with 2 samples.

Results

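Microglia and macrophages of the arcuate nucleus and median eminence, the base of the hypothalamus, are the 192 of 4659 cell barcodes described here, 92 of 2316 from mice without Irx5 and 100 of 2343 from wild-type mice. They were chosen by their measured transcripts: a barcode with at least 300 genes above 0 was a member when at least 3 of the 8 genes C1qa, C1qb, C1qc, Cx3cr1, Ctss, Csf1r, Tmem119 and P2ry12 were above 0 and at most 2 of the 5 neuron genes Snap25, Syt1, Stmn2, Meg3 and Snhg11 were. The macrophage genes Mrc1, Pf4 and Ms4a7, which mark the cells along vessels, are given apart. The study asked how loss of Irx5, a homeobox transcription factor, alters the cells of this region. It compared Irx5KO mice (Irx5-/-, 6 mice pooled) with WT mice (wildtype, 7 mice pooled), all of strain CD-1 and aged 7 to 8 weeks. Tissue was dissected and dissociated, live cells were sorted, and each pool gave 1 library by Drop-seq, a droplet method that reads the 3' ends of transcripts and counts molecules by their identifiers (UMIs).

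Microglia are the resident macrophages of brain tissue. They survey it through receptors for nucleotides and fractalkine, clear debris, and make the complement protein C1q. Perivascular macrophages sit between vessel and tissue, where they take up material from blood, and both kinds can present antigen on MHC class II and release cytokines when stimulated. In the hypothalamus, microglia are known to respond to diet, and the median eminence is open to the blood.

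With 1 library per genotype no difference between Irx5KO and WT has a replicate check, and pooling hides the spread between mice. No test between genotypes was made. The 95% intervals given cover counting error only, and a difference of at least 1.5-fold describes size. Levels are in CPM, UMIs summed over cells and scaled to the same total in each library, and ratios are Irx5KO over WT. The members held 106228 UMIs in Irx5KO and 99023 in WT. The median member had 897.5 UMIs (413 to 3478) in Irx5KO and 772.5 (421 to 3565) in WT, against 1485.5 and 1332 in the other barcodes of those libraries. Irx5 was counted 0 times in 2316 Irx5KO barcodes and 16 times, in 14 barcodes, in 2343 WT barcodes. In members Irx5 was at 0 in both libraries, which allows a share of cells with a UMI of up to 3.26% in Irx5KO and 3% in WT, and Irx3, its neighbouring relative, was at 0 too.

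The rule cut the barcodes at a gap. All 8 markers were above 0 in 26 Irx5KO and 29 WT members, and at least 6 in 74 and 88. Only 5 barcodes in Irx5KO and 5 in WT had exactly 2 markers. Just inside the limit, with 3 markers, lay 4 Irx5KO and 1 WT members, and just outside it, with 2 markers and few enough neuron genes, lay 3 and 5 barcodes. The neuron limit removed 1 Irx5KO and 4 WT barcodes with at least 3 markers. None of the 5 neuron genes was seen in 49 Irx5KO and 62 WT members, and the library pair shared 1 barcode sequence, which was not a member.

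**Figure D1:**
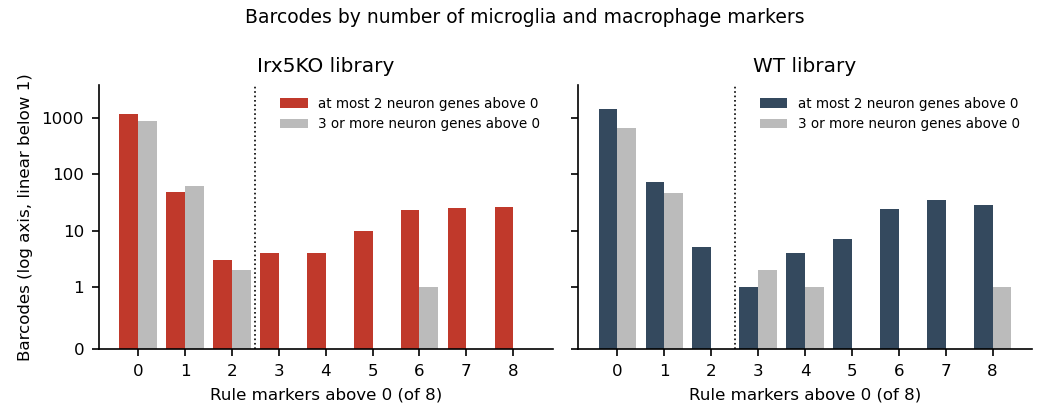
Number of barcodes (log axis, linear below 1) by how many of the 8 rule markers were above 0, in the Irx5KO library (left) and the WT library (right), with coloured bars for barcodes with at most 2 neuron genes above 0 and grey bars for the rest. Coloured bars right of the dotted line are the 92 Irx5KO and 100 WT members, most of them with 6 to 8 markers.

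Members made up 3.97% of barcodes in Irx5KO (95% Clopper-Pearson interval 3.21 to 4.85%) and 4.27% in WT (3.49 to 5.17%). The ratio of the shares was 0.931 (0.694 to 1.25), an interval that includes equality. Sorting of live cells, droplet capture and filtering before deposit can each set such a share.

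The label was met by genes the rule did not name. Among the 25 genes with the highest level in members relative to all other barcodes were Tyrobp and Fcer1g, which carry signals from immune receptors, Laptm5 of the lysosome, Trem2, a lipid-sensing receptor, Siglech, Fcrls, Aif1 (Iba1) and Ly86. Because the members were selected on such genes, these contrasts are descriptive. The 8 rule markers together took a median of 2.94% of a member's UMIs in Irx5KO (0.857 to 7.21%) and 3.26% in WT (0.834 to 6.17%), against 0.00366% and 0.00497% in all other barcodes. The share of members with a C1qa UMI was 92.4% in Irx5KO and 92% in WT, and of other barcodes 0.809% and 1.16%. Thinned to 500 UMIs per cell, the median share of members with a UMI over the 8 markers was 70.6% in Irx5KO and 74.7% in WT in 1 random draw of UMIs, and 73.5% and 76.4% in another. Markers of T cells (Cd3e) and neutrophils (S100a8) were at 0 in members of both libraries, but other genes of their lists were not. The lymphocyte list had 56 UMIs in 35 Irx5KO members and 52 in 38 WT members. Of these, Ptprc had 37 and 21 and Ighm 19 and 28. The monocyte and neutrophil list had 6 UMIs in 2 Irx5KO members and 11 in 7 WT members.

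**Figure D2:**
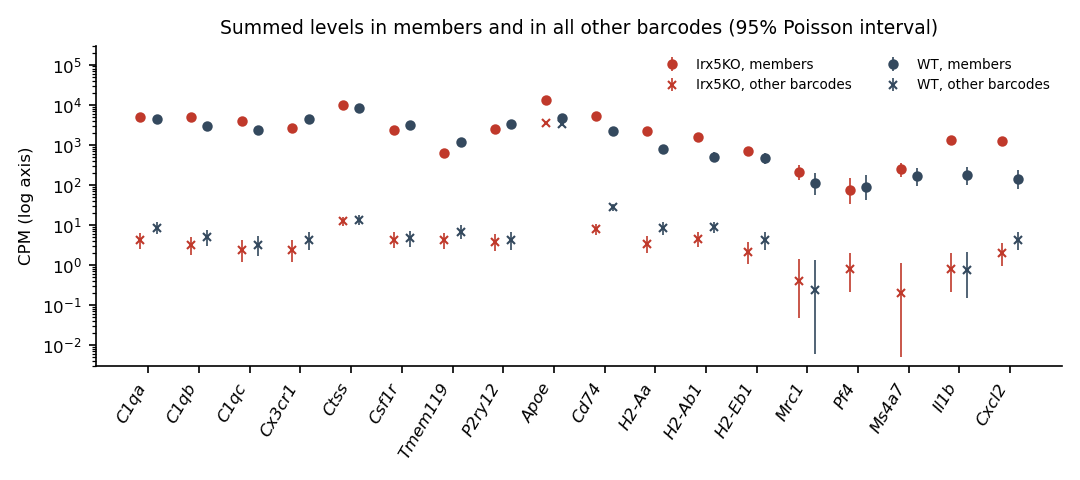
Levels in CPM (log axis) of UMIs summed over members (circles) and over all other barcodes (crosses), Irx5KO in red and left of WT in dark blue, with 95% Poisson intervals; sums of 0 are not drawn. The rule markers, class II genes and perivascular genes all lie far higher in members, while Apoe was also present in other barcodes.

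Perivascular macrophage genes marked few members. At least 2 of Mrc1, the mannose receptor, Pf4, a chemokine, and Ms4a7, a membrane protein of macrophages, were above 0 in 4 of 92 Irx5KO members (4.35%, 1.2 to 10.8%) and 1 of 100 WT members (1%, 0.0253 to 5.45%). At least 1 of them was above 0 in 15 Irx5KO members (16.3%, 9.42 to 25.5%) and 4 WT members (4%, 1.1 to 9.93%). After thinning to 500 UMIs at least 1 of them was seen in 10.6% of Irx5KO members (4.96 to 19.2%) and 3.37% of WT members (0.701 to 9.54%). In all other barcodes 0.27% of Irx5KO and 0.0446% of WT barcodes had such a UMI, and none had 2 of the genes. Mrc1 was counted 22 times in 6 Irx5KO members and 11 times in 2 WT members. Pf4 was counted 8 times in 4 Irx5KO members and 9 times in 1 WT member. Ms4a7 was counted 26 times in 12 Irx5KO members and 16 times in 3 WT members.

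The 5 members with at least 2 of these genes looked alike in other genes. Mrc1 had 1, 3, 6 and 5 UMIs in the 4 Irx5KO cells and 10 in the WT cell, and Apoe, which carries lipids, had 132, 107, 29 and 42 UMIs in the Irx5KO cells and 79 in the WT cell. Lyz2, a lysozyme of macrophages, had 3, 21, 4 and 9 UMIs in the Irx5KO cells and 27 in the WT cell. Summed over the 5 cells, Apoe reached 51598 CPM against 7541 CPM in the other members, and Lyz2 8489 against 541 CPM. Cd14, the lipopolysaccharide co-receptor, was also higher there, at 3449 against 607 CPM. Cd74, the class II invariant chain, was uneven among them, with 91, 0, 9 and 1 UMIs in the 4 Irx5KO cells and 8 in the WT cell, so that 1 cell held 91 of the 109. The microglial genes Tmem119, Selplg, Siglech, Sparc, Olfml3 and Sirpa were all at 0 in these 5 cells. In the other members they ranged from 582 CPM (Sirpa) to 4598 CPM (Sparc). These cells were picked by their own transcripts, so no test applies.

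Class II genes followed a similar division. At least 1 of H2-Aa, H2-Ab1 and H2-Eb1, the chains of the MHC class II molecules, was above 0 in 20 Irx5KO members (21.7%, 13.8 to 31.6%) and 5 WT members (5%, 1.64 to 11.3%). Thinned to 500 UMIs, the shares were 17.6% in Irx5KO (10.2 to 27.4%) and 5.62% in WT (1.85 to 12.6%), and in other barcodes 0.567% and 0.692%. At least 2 of the 3 were above 0 in 14 Irx5KO and 3 WT members. A perivascular gene was also seen in 10 of the 20 Irx5KO cells and in 3 of the 5 WT cells. P2ry12, the ADP receptor that typifies microglia, was at 165 CPM in the 11 Irx5KO and 482 CPM in the 3 WT members with exactly 1 perivascular gene. In the members with neither class II nor perivascular UMIs, 67 in Irx5KO and 94 in WT, P2ry12 was at 3573 and 3558 CPM. The median depth of those members was 814 UMIs in Irx5KO and 735 in WT, lower than that of all members. The values below are therefore given for all members and, where the picture changes, for these 161 members alone, a choice made after the data were seen.

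**Figure D3:**
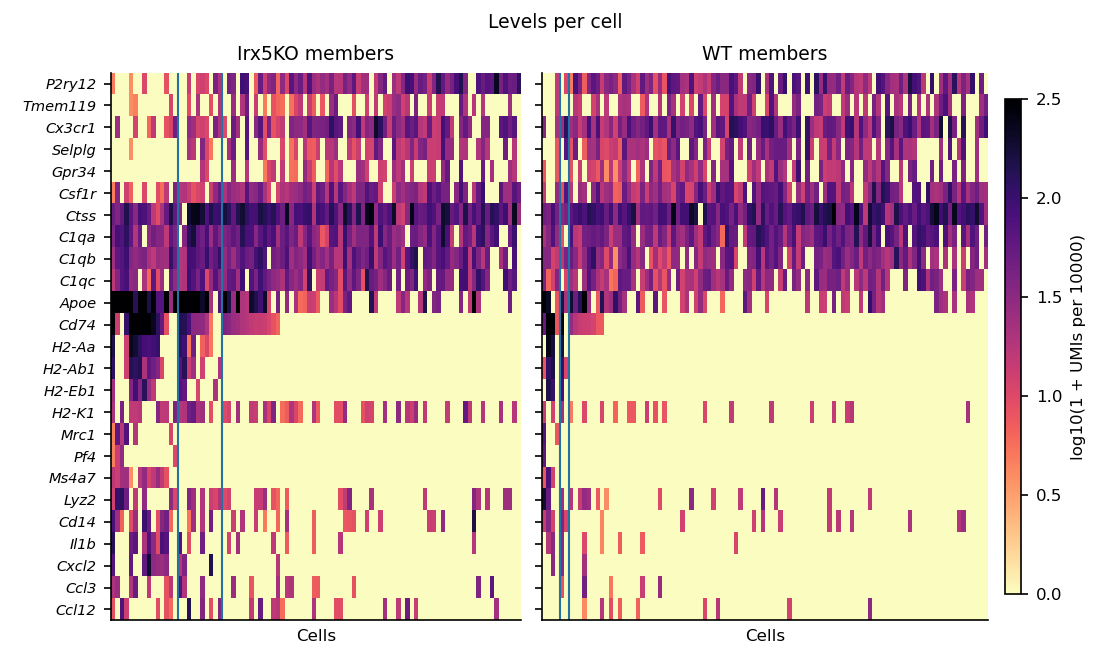
Level per cell, log10(1 + UMIs per 10000), of 25 genes (lines) in each Irx5KO member (left panel, 92 columns) and WT member (right panel, 100 columns). Blue lines part members with a perivascular UMI (15 Irx5KO, 4 WT), those with only a class II UMI (10 and 2) and the remaining 67 and 94. Most cells with a perivascular UMI are dark for Apoe and Cd74 and pale for P2ry12, Tmem119, Selplg and Gpr34. In those with only a class II UMI, Selplg was at 1192 CPM in Irx5KO and 2997 CPM in WT, beside 1239 and 2065 CPM in the remaining cells.

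Between the genotypes, 1190 genes had at least 30 UMIs over the members of both libraries. Of these, 215 (18.1%) were at least 1.5-fold higher in Irx5KO members and 204 (17.1%) at least 1.5-fold lower, around a median log2 ratio of 0.02. The same genes had a median of -0.06 over all other barcodes. A gene past 1.5-fold was thus common at this depth, and gene groups are read against those shares. Genes concentrated in 1 cell were not rare: Nnat, an imprinted gene of neurons, had 21 UMIs in Irx5KO and 117 in WT, of which 67.5% in WT lay in a single barcode, and 6330403K07Rik had 14 and 106 UMIs, with 83% of those in WT in a single barcode.

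**Figure D4:**
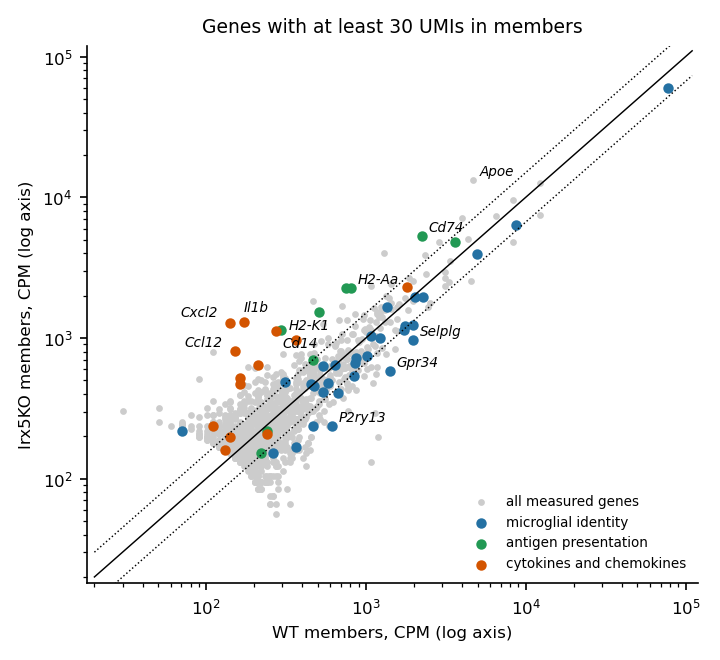
Level of each of 1190 genes in Irx5KO members (vertical, CPM, log axis) and in WT members (horizontal, CPM, log axis); the solid line marks equal levels and dotted lines 1.5-fold. Genes of the cytokine and chemokine list (orange) and antigen presentation genes (green) lie mostly above the line, and microglial identity genes (blue) mostly below it.

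C1q binds synapses and debris and opens the classical complement pathway. It is built from chains A, B and C, whose genes lie side by side on the minus strand of chromosome 4 (GRCm38): C1qb at chr4:136880129-136886187, C1qc at chr4:136889804-136893065 and C1qa at chr4:136895917-136898803. The chains differed in ratio. C1qb was at 4810 CPM in Irx5KO members and 2878 CPM in WT members (ratio 1.67, 1.44 to 1.94), and C1qc was at 3907 and 2333 CPM (1.67, 1.42 to 1.98). C1qa was at 5065 CPM in Irx5KO and 4383 CPM in WT (1.16, 1.02 to 1.31), and its median per cell was 4404 CPM in Irx5KO and 4437 CPM in WT. In the 161 members without class II or perivascular UMIs the ratios were 1.63 for C1qb, 1.67 for C1qc and 1.08 for C1qa. All 3 genes took part in choosing the members in both libraries. C3ar1, the receptor of the complement fragment C3a, had 27 UMIs in Irx5KO and 11 in WT (ratio 2.29, 1.1 to 5.11). Of the 9 other complement genes and receptors listed, 3 were measured, 1 of them past 1.5-fold in Irx5KO and none below it, with a median log2 ratio of -0.49.

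Antigen presentation genes were more often higher than lower in Irx5KO members. Of 15 listed genes 9 were measured, 5 were at least 1.5-fold higher and none was 1.5-fold lower, beside 18.1% and 17.1% of all measured genes. The median log2 ratio was 1.25, against -0.36 for the same genes in other barcodes. Summed, the list stood at 18743 CPM in Irx5KO members and 9372 CPM in WT members. The class I heavy chains H2-K1 and H2-D1 present peptides to CD8 T cells. H2-K1 was at 1139 CPM in 49 Irx5KO members and 293 CPM in 20 WT members (ratio 3.89, 2.58 to 6.05), and H2-D1 at 2250 CPM in 61 and 747 CPM in 40 (3.01, 2.31 to 3.96). In other barcodes their ratios were 1.3 and 1.34. The 3' ends of these class I genes resemble each other and other class I genes, so that reads may be shared. Their light chain B2m was closer, at 4829 CPM in Irx5KO and 3615 CPM in WT (1.34, 1.16 to 1.53). Tapbp and Psmb8 of the list were not higher, with ratios of 0.678 (0.333 to 1.35) and 0.893 (0.482 to 1.65). Without the class II and perivascular cells, H2-K1 had a ratio of 3.31 (2.01 to 5.62), H2-D1 2.85 (2.07 to 3.96) and B2m 1.21 (1.03 to 1.43). The class I difference was thus nearly as large in the remaining cells. Of the 5 genes of the list measured in those cells, 3 were at least 1.5-fold higher and 1 lower. All 867 genes measured there had 146 higher and 136 lower.

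The class II genes were spread over far fewer cells. H2-Aa had 241 UMIs in 16 Irx5KO members and 80 in 3 WT members (ratio 2.81, 2.17 to 3.66), and H2-Ab1 had 163 in 16 and 50 in 5 (3.04, 2.2 to 4.26). H2-Eb1 had 74 UMIs in 11 Irx5KO members and 46 in 3 WT members (1.5, 1.02 to 2.22). Cd74, which escorts class II chains, had 565 UMIs in 33 Irx5KO members and 222 in 13 WT members (2.37, 2.03 to 2.78). A single cell gave 28.5% of the class II UMIs in Irx5KO and 49.4% in WT, and 5 cells gave 79.3% and 100%. Their ratio therefore rests on a handful of cells. Without any cell with a perivascular UMI the median of the antigen presentation list, over the genes then measured, was 0.30. Without cells with a class II or perivascular UMI, Cd74 had 23 UMIs in Irx5KO and 18 in WT (1.68, 0.865 to 3.3).

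Because 9 Irx5KO and 3 WT members had UMIs of all 3 class II chains, the start-site windows of 2 of them, H2-Aa and H2-Eb1, are shown (RefSeq, GRCm38.p6, gene strand, 250 bases before the start site to 50 after it). H2-Aa is at chr17:34287774-34288073 on the minus strand and H2-Eb1 at chr17:34305617-34305916 on the plus strand. Capitals mark the letters CTGATTGG, the Y box core known from class II promoters, found at -51 and -62 from the start site.
H2-Aa: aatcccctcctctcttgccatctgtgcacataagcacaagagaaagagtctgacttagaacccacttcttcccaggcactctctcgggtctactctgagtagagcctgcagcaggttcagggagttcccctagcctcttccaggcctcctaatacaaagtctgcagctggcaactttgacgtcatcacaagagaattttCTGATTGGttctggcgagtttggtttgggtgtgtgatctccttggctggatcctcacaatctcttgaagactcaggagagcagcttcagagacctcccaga
H2-Eb1: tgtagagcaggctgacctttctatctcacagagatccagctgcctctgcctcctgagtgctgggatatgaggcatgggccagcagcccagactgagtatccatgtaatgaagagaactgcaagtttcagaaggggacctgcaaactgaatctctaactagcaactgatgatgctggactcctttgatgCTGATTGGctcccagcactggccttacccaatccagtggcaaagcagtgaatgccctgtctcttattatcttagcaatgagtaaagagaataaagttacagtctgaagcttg
Searched on both strands, these letters occur in 1346 of 32851 such windows (4.1%), so a match is a description of sequence.

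The list of cytokines and chemokines had the highest median ratio among lists with at least 3 measured genes. It also holds Cd14, Cd83, Nfkbia and Nfkbiz, which are not cytokines. Of 22 listed genes 13 were measured, 9 were at least 1.5-fold higher in Irx5KO members and none was lower by that much. Cd14, Cd83 and Nfkbiz are among those 9. For all measured genes the shares were 18.1% and 17.1%. The median log2 ratio of the list was 1.54, against 0.10 in other barcodes. Cxcl2, a chemokine for neutrophils, had 135 UMIs in 12 Irx5KO members and 14 in 3 WT members (ratio 8.99, 5.18 to 16.9). Il1b, the interleukin-1 beta precursor, had 137 UMIs in 19 Irx5KO members and 17 in 8 WT members (7.51, 4.52 to 13.3). Ccl12, a monocyte chemokine of mice, had 86 UMIs in 23 and 15 in 9 (5.34, 3.07 to 9.96). The chemokines Ccl3 and Ccl4 had 68 UMIs in Irx5KO against 21 in WT, and 102 against 36. Cxcl1, a chemokine outside the list, had 85 UMIs in 11 Irx5KO members and 11 UMIs in WT, all of those in a single cell. Il1a and Tnf were close, at 21 UMIs in Irx5KO against 14 in WT and 17 against 13.

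A UMI of at least 1 of Il1b, Cxcl1, Cxcl2, Ccl3, Ccl4 and Ccl12 was seen in 46 Irx5KO members (50%, 39.4 to 60.6%) and 19 WT members (19%, 11.8 to 28.1%), and in 3.33% and 2.05% of other barcodes. Thinned to 500 UMIs, the shares of members were 42.4% in Irx5KO (31.7 to 53.6%) and 13.5% in WT (7.17 to 22.4%). At least 2 of the 6 genes were seen in 27 Irx5KO and 10 WT members. Of these, 13 and 2 also had a class II UMI, and 10 and 1 a perivascular UMI. Without cells of either kind, Il1b had 10 UMIs in Irx5KO and 7 in WT, Cxcl2 had 3 and 7, and Cxcl1 had 3 and 11 (ratio 0.358, 0.0641 to 1.35), so that none of these ratios was then distinguishable from equality by counting. Ccl4 kept a ratio of 1.74 (1.09 to 2.8) and Ccl12 one of 2.19 (1.11 to 4.46). Cd14 was at 1120 CPM in 31 Irx5KO members and 273 CPM in 16 WT members (4.11, 2.69 to 6.49), and its ratio without those cells was 3.5 (1.75 to 7.46). Nfkbiz, an inducible nuclear partner of NF-kB, was at 518 CPM in Irx5KO and 162 CPM in WT (3.2, 1.81 to 5.99), and its ratio without those cells was 1.12 (0.475 to 2.62).

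The windows of Cxcl2 and Il1b are shown because these genes had the highest ratios of the list. Cxcl2 is at chr5:90903649-90903948 on the plus strand and Il1b at chr2:129371090-129371389 on the minus strand (RefSeq, GRCm38.p6). Capitals mark a decamer form of the NF-kB motif, found at -97 and -78 in Cxcl2.
Cxcl2: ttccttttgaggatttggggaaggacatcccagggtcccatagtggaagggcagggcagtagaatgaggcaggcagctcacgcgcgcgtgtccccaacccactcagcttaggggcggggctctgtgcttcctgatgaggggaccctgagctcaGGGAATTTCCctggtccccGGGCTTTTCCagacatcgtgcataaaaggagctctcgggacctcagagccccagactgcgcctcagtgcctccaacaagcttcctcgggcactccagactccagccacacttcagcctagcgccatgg
Il1b: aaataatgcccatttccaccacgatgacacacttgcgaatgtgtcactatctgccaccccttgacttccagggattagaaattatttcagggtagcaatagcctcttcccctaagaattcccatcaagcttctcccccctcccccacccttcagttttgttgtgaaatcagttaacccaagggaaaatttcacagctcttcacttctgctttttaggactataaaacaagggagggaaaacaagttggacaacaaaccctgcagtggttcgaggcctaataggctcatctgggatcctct
On either strand this form occurs in 535 of 32851 windows (1.63%). It has no match in the Il1b window, which says only that these letters are not there.

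Apoe, abundant in the perivascular cells above, was at 13311 CPM in 62 Irx5KO members and 4706 CPM in 47 WT members (ratio 2.83, 2.55 to 3.15), and at 3464 and 3211 CPM in other barcodes. Most of the difference lay in few cells: in members with neither class II nor perivascular UMIs Apoe was at 4696 CPM in Irx5KO and 3591 CPM in WT (1.31, 1.12 to 1.53). Those levels are near that of the other barcodes, where 62.2% of Irx5KO and 60.5% of WT barcodes had an Apoe UMI, so free Apoe RNA in the droplets was not told apart from the cells' own. Of the other lipid genes listed, Trem2 (ratio 0.817), Lrp1 (0.868) and Npc2 (1.16) were measured and within 1.5-fold. Genes of activated microglia had 3 of 10 measured genes higher and 2 lower, beside 18.1% and 17.1% of all measured genes, with a median log2 ratio of 0.30. Fth1, the ferritin heavy chain, was at 7126 CPM in Irx5KO and 3979 CPM in WT (1.79, 1.58 to 2.03), and Cd52, a glycoprotein of leukocytes, at 489.5 and 202 CPM (2.42, 1.42 to 4.29). Fth1 has a near-identical processed copy, and with it the log2 ratio was 0.89. Ctsb, a lysosomal protease, was at 2410 CPM in Irx5KO and 1444 CPM in WT (1.67, 1.35 to 2.06). Spp1, Itgax, Lpl and Cst7, which define the disease-associated state, had at most 5 UMIs in either library, and Gpnmb had 0 in both. Clec7a, a receptor for fungal glucans of the same state, had 13 UMIs in 6 Irx5KO members and 0 in WT members.

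Genes of microglial identity were more often lower in Irx5KO members. Of 30 measured genes 10 were at least 1.5-fold lower and 2 were higher, beside 17.1% and 18.1% of all measured genes, with a median log2 ratio of -0.37. The same genes had a median of -0.32 in other barcodes. Gpr34, a receptor of lysophosphatidylserine, was at 584 CPM in Irx5KO members and 1424 CPM in WT members (2.44-fold lower, 1.8 to 3.34). Selplg, a selectin ligand, was at 960.2 and 1979 CPM (2.06-fold lower, 1.61 to 2.65). P2ry13, a nucleotide receptor, was at 235 and 616 CPM (2.62-fold lower, 1.62 to 4.35). Gpr84, a receptor of medium-chain fatty acids, went the other way, with 23 UMIs in Irx5KO and 7 in WT (ratio 3.06, 1.27 to 8.45). Aif1 and Tyrobp were within counting error of equality, at ratios of 0.967 and 0.96.

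Several of these ratios lay nearer to equality once the class II and perivascular cells were left out. In the 161 members without class II or perivascular UMIs the median of the identity list was -0.19, and 4 of 29 measured genes were then lower and 1 higher. All 867 genes measured in those members had 136 lower and 146 higher. P2ry12 had a ratio of 0.753 (0.637 to 0.888) in all members and 1 (0.848 to 1.19) in these, and Csf1r, the growth factor receptor that microglia need, 0.74 in all and 0.941 (0.785 to 1.13) in these. Sparc likewise stood at 0.794 in all members and 1.01 (0.883 to 1.16) in these. Other genes kept a lower level there: Gpr34 had a ratio of 0.547 (0.396 to 0.749), Selplg 0.6 (0.459 to 0.779), P2ry13 0.552 (0.328 to 0.904) and Tmem119 0.633 (0.45 to 0.881). Cx3cr1, the fractalkine receptor, was at 2551 CPM in Irx5KO and 4524 CPM in WT over all members (0.564, 0.483 to 0.657) and at 3414 and 4667 CPM in these (0.732, 0.621 to 0.86). Over other barcodes, where these genes had at most 28 UMIs per library, the ratios of Gpr34, Selplg, P2ry13, Tmem119 and Cx3cr1 were 0.201, 0.423, 0.268, 0.603 and 0.567.

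Among nucleotide and chemokine receptors, 4 of 9 measured genes were lower and 2 higher, with a median log2 ratio of -0.46. Over all measured genes 17.1% were lower and 18.1% higher. Lair1, an inhibitory collagen receptor, was at 235 CPM in Irx5KO and 586 CPM in WT (2.49-fold lower, 1.53 to 4.15). The transcription factor Maf was at 555 and 1151 CPM (2.07-fold lower, 1.5 to 2.89), with a ratio of 0.437 in other barcodes, and Sall1, which holds microglial fate, had 16 UMIs in Irx5KO and 26 in WT. Of the 13 TGF-beta pathway genes 5 were measured, none was higher and 1 lower. Of 22 lysosomal genes measured 1 was higher and 3 lower, smaller shares than those of all measured genes, with a median of -0.23. The lower ones included Hexa and Ctsh, at 0.552 and 0.557 of the WT level.

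**Figure D5:**
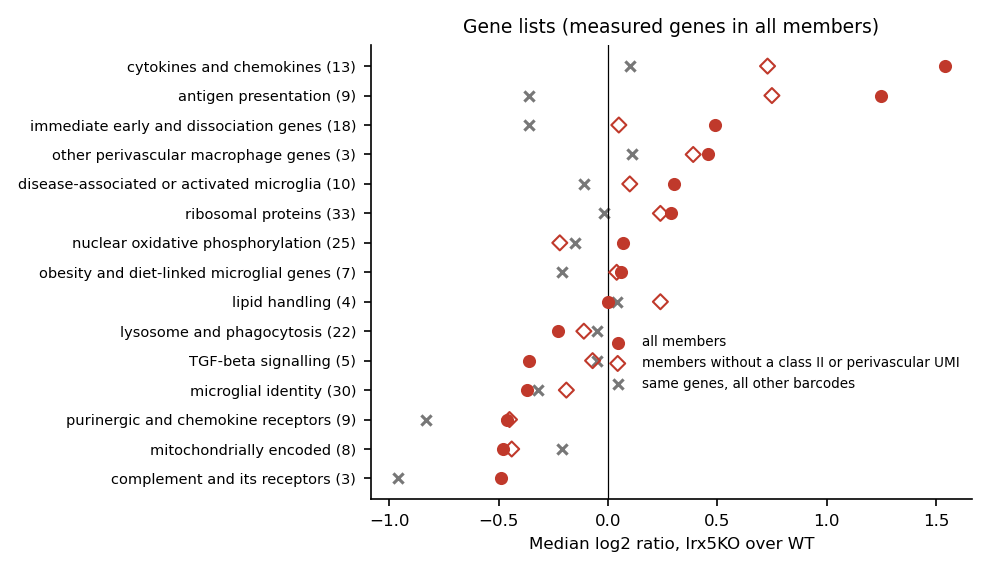
Median log2 ratio, Irx5KO over WT, of the measured genes of each list (number in brackets) in all members (filled circles), in members without a class II or perivascular UMI (open diamonds; lists with at least 3 measured genes) and, for the same genes, in all other barcodes (crosses). Cytokines and antigen presentation stand highest at 1.54 and 1.25 in all members and at 0.73 and 0.75 without those cells. The latter medians cover fewer genes, 6 against 13 for cytokines and 5 against 9 for antigen presentation. The class II chains are at 0 there by the choice of cells.

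Stress genes were mixed. Of 18 immediate early and dissociation genes measured, 5 were higher in Irx5KO members and 1 lower (median log2 ratio 0.49, and -0.36 in other barcodes). For all measured genes the shares were 18.1% and 17.1%. The heat shock genes led: Hspa1a was at 4038 CPM in Irx5KO members and 1293 CPM in WT members (3.12, 2.56 to 3.84) but at 959 and 1510 CPM in other barcodes. Hspa1b was at 1817 and 465 CPM in members (3.91, 2.82 to 5.52), with a ratio of 1.05 in other barcodes. In members with exactly 1 perivascular gene Hspa1a was at 12987 CPM in Irx5KO and 3859 CPM in WT. Without class II and perivascular cells the ratios of Hspa1a and Hspa1b were 1.37 (1.05 to 1.79) and 2.25 (1.46 to 3.52), with a list median of 0.05 over 13 measured genes. Egr1 was lower, at 442 CPM in Irx5KO and 767 CPM in WT (0.576, 0.392 to 0.84), and Jun and Klf6 were within 1.5-fold. Such genes are also known to respond to dissociation, and its part in the cytokine or heat shock values was not tested.

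Genes of the ribosome and of oxidative phosphorylation were mixed, beside shares of 18.1% higher and 17.1% lower over all measured genes. Of 33 ribosomal protein genes measured 6 were higher and 5 lower (median 0.29), and of 25 nuclear oxidative phosphorylation genes 2 were higher and 3 lower (median 0.07). Several of the genes furthest apart were translation genes or their processed copies, Tpt1-ps3, Gm13777, Rpl35a and Eef1a1 on the higher side and Gm10263 and Gm2000 on the lower. They differed in the same direction in other barcodes, where the ratios were 1.9, 2.55, 1.82, 2.01, 0.18 and 0.379, and Rpl35a with its near-identical copies had a log2 ratio of -0.01. Mitochondrially encoded genes had 3 of 8 lower and none higher (median -0.48), led by mt-Rnr2 at 4848 CPM in Irx5KO and 8311 CPM in WT (0.583, 0.521 to 0.652), with a ratio of 0.659 in other barcodes. The nuclear RNA Rn7sk had a ratio of 0.36 in members and 0.373 in other barcodes. Of 22 interferon genes 1 was measured, Ly6e, at a ratio of 0.814 (0.612 to 1.08). Of 17 genes tied to diet and obesity in microglia 7 were measured, 2 were higher and none lower; Tlr2 had 25 UMIs in Irx5KO and 12 in WT, and Stat3 20 and 11.

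Transcripts of other cell types were sparse in members, and some of the lists differed between the libraries. The 13 neuron genes did not, with 72 UMIs in 47 Irx5KO members and 61 in 40 WT members (ratio 1.1, 0.771 to 1.57). Nor did the 8 astrocyte genes, with 18 and 23 UMIs (0.73, 0.371 to 1.41), or the 6 genes of meningeal fibroblasts, with 6 and 5. The rule itself capped 5 neuron genes in members of both libraries, Meg3 and Snhg11 of the neuron list among them. Those 5 had 63 UMIs in Irx5KO and 57 in WT, so the neuron ratio was limited in advance by the choice of members. The 4 red blood cell genes found in the table had 1 UMI in Irx5KO members and 29, in 23 cells, in WT members. The 9 endothelial and mural genes had 2 UMIs, in 2 cells, in Irx5KO members and 27, in 4 cells, in WT members. The 9 tanycyte and ependymal genes had 0 UMIs in Irx5KO and 12, in 7 cells, in WT, and the 10 oligodendrocyte genes 39 and 75. The 7 pituitary genes had 58 UMIs in Irx5KO and 4 in WT; all 32 Cga UMIs in Irx5KO lay in a single member, while Gh and Prl had 10 and 11 UMIs over Irx5KO members and none over WT members. Monocyte and neutrophil genes had 6 UMIs in Irx5KO and 11 in WT. The defining markers Cldn5 and Rax were at 0 in Irx5KO members, against 9 and 2 UMIs in WT members, each gene in 1 cell. The part of these transcripts in the genotype ratios was not tested.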

How the data were processed

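Drop-seq UMIs were measured in 1 Irx5KO and 1 WT library, grouped by the genotype labels. Build mm10 and the tools STAR 2.6.0b, Seurat 3, bcl2fastq and Picard are listed in the submitters' processing notes, without their settings. The authors deposited WT as raw UMI counts (28008 genes, 2800 barcodes), and Irx5KO and a merged table of both as natural log values, ln of 1 plus UMIs scaled to a sum of 10000 in each barcode, going by the values. Counts were recovered from the merged table (26840 genes, 4977 barcodes) by inverting the log and dividing by each barcode's smallest value. Every result lay within 4.5e-12 of a whole number, and 0 of 4276208 WT UMIs compared differed from the raw counts. The design had assumed counts for both libraries.

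Members and gene lists were chosen with earlier results of these data known. UMIs of members were summed per library. Ratios have exact conditional binomial intervals, sums exact Poisson and shares exact Clopper-Pearson intervals, at 95%; PCR and pooling are not covered. A gene was measured at 30 UMIs or more over both libraries, and a list's genes are counted by size alone. Where a sum was 0, 3 counts stood in for it in list medians. Genes were named by a rule: the genes that chose members, the perivascular genes, the 25 leading genes, up to 12 genes per direction at least 1.5-fold apart with at least 50 UMIs, 8 cells with a UMI where the gene is higher and no more than 20% of its UMIs there in 1 cell, ranked by the interval bound nearest to equality, up to 4 per list, the Irx genes, and genes apart in perivascular cells. Other genes given were chosen after their values were seen. Some named genes are not reported here. Scrublet at an expected rate of 5% called 10 of 2316 Irx5KO barcodes (0.432%, 0 members) and 14 of 2343 WT barcodes (0.598%, 1 member), far under the expected rate, and none was removed. Gene positions are from GENCODE on GRCm38, and near-identical transcripts were found with BLAST+ 2.17.0 over the last 500 bases (95% identity, 100 bases). Python 3.11.15, numpy 2.4.6, scipy 1.17.1, pandas 2.3.3, scanpy 1.11.5 and matplotlib 3.10.9 were used, and the ratios were tested on simulated data.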

Additional observations from a re-analysis of the deposited data

Results flagged for a closer look

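Barcodes under 300 genes take no part in the comparisons. Among 34 such Irx5KO barcodes, 2 met the rest of the rule for microglia and macrophages, and among 284 such WT barcodes, 27 did. Markers of these cells were therefore present below the gene limit, in larger number in the WT library, which holds more shallow barcodes. The member shares of both libraries leave them out. Of 173 WT barcodes outside the merged table, 60 had at least 300 genes, and 0 of those met the rule.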

How the results depend on the processing

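No paired analysis was possible because each genotype has 1 library, so no replicate could be left out. The results were recomputed under 18 other settings, of which 4 were added after the data were seen. The ratio of member shares stayed within its counting interval in the 6 settings that bear on it. The share of members with perivascular genes in Irx5KO was 16.3% when 1 gene sufficed, and in WT 0% with no neuron gene allowed. The number of genes higher and lower in Irx5KO members, 215 and 204, became 114 and 88 with no neuron gene allowed, 108 and 85 at 50 UMIs per gene, 1873 and 1886 at 1 UMI, and 87 and 59 after thinning to 500 UMIs, which left 85 Irx5KO and 89 WT members. Fewer or more genes were measured in each of these. The median of the microglial identity list, -0.37, was -0.27 with no neuron gene, -0.21 without class II cells, -0.21 without cells with a perivascular gene and -0.19 without both. That of antigen presentation, 1.25, was 0.89 at 500 genes per barcode, 1.95 with no neuron gene, 1.08 without cells with 2 perivascular genes, 1.49 at 50 UMIs, 0.87 at 1 UMI, 0.85 without the deepest member of each library, 0.49 without class II cells, 0.30 without cells with a perivascular gene and 0.75 without both. That of cytokines, 1.54, was 1.16 at 500 genes, 1.71 with cells weighted alike, 1.24 at 1 UMI, 0.85 without class II cells, 0.88 without cells with a perivascular gene, 0.73 without both and 2.21 after thinning. Each such median covers only the genes measured in its setting, so the genes behind it can differ. Of 66 named genes past 1.5-fold, 64 kept their direction and 46 stayed past 1.5-fold in the settings where they could be measured, 7 to 15 settings a gene. Cxcl1 and Cxcl2 were under 30 UMIs without class II and perivascular cells, where their log2 ratios were -1.48 and -0.83. Ms4a7 turned to -0.04 without cells with 2 perivascular genes and Stat3 to -0.00 with cells weighted alike. The cause was not tested where cells were weighted otherwise. Depth limits the rest: a gene at 30 UMIs has a wide counting interval, and 92 Irx5KO and 100 WT cells say little of rare macrophages.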
